A study of Mus musculus with 2 samples.

Results

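The genes described here are the 81 annotated mouse miRNA genes named Mir297, Mir466, Mir467 or Mir669. Such a name stands alone or goes on with a letter or a hyphen, after which anything may follow. The genes were found by symbol in GENCODE M21 among the 2202 miRNA genes that the count tables hold, with no use of their read counts. Of the 81, 71 lie within Sfmbt2 on chromosome 2 and 10 lie on other chromosomes. Small RNA was sequenced from adrenal glands of female B6CASTF1/J mice at 4 days of age, with 2 libraries numbered as biological replicates 1 and 2. B6CASTF1/J is the first-generation cross of C57BL/6J with CAST/EiJ. No animal was treated and no second strain, age or sex was measured, so the series holds 1 group. Both samples carry 1 donor identifier but are described as different females, so the spread between them is that of 2 libraries, and it may in part be technical.

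A miRNA is a short RNA strand cut from a hairpin, and its seed near the 5′ end directs it to messenger RNAs. Sfmbt2 encodes a Polycomb group protein and is an imprinted gene, expressed from the paternal copy in early embryos and extraembryonic tissue. One of its introns holds a large rodent miRNA cluster built of repeated hairpins. The cluster is best known from placenta and from embryonic stem cells. The adrenal gland has a steroid-producing cortex around a catecholamine-producing medulla.

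Many of these hairpins are built of long alternations of purine and pyrimidine. RefSeq (GRCm38.p6) gave a mature sequence for 8 of the 81 members, each of them outside Sfmbt2. The following 5 show how far mature sequences of these families follow that pattern, and each came from a gene with 0 reads in both libraries. The longest alternating run covers 21 of 21 bases in miR-467g, 22 of 23 in miR-466j, 20 of 22 in miR-466i-3p and 18 of 22 in miR-467h, but 8 of 20 in miR-669n. Sequences run 5′ to 3′ and capitals mark the seed, bases 2 to 8. Positions on GRCm38.p6 are chr13:17747552-17747573 (plus strand) for miR-466i-3p, chr5:34732872-34732892 (minus) for miR-467g, chr10:60960802-60960824 (plus) for miR-466j, chr9:115381898-115381919 (plus) for miR-467h and chr3:115979905-115979924 (plus) for miR-669n.
miR-466i-3p: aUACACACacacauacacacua
miR-467g: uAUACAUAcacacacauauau
miR-466j: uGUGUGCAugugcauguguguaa
miR-467h: aUAAGUGUgugcauguauaugu
miR-669n: aUUUGUGUguggaugugugu

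The 8 mature sequences had 8 different seeds, and the number of member hairpins that hold a seed's letters ran from 2 to 63. The 7 bases of the miR-467g seed, AUACAUA, occurred on the annotated strand of 63 of the 81 member hairpins and of 143 of the 2202 hairpins in the tables. Those of the miR-669n seed, UUUGUGU, occurred in 10 and 57, and those of the miR-467h seed, UAAGUGU, in 2 and 14. The whole 22 bases of miR-467h were found in 3 hairpins, those of Mir467h, Gm25510 and Gm26303. The other 7 mature sequences were each found in 1 hairpin. Such a match is one of letters and not of a site in use.

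This composition set the families apart from most miRNA genes by description. Steps between neighbouring bases that pass from purine to pyrimidine or back made up a median of 86.2% of the steps in member hairpins (range 64.3% to 97.3%) and 44.3% in the hairpins of all other miRNA genes. Above 80% were 70 of the 81 members and 234 of the 2202 hairpins. Of these 234, 5 passed the minimum for detection used here, 10 reads in each library, and each of the 5 is a member. Over all 2202 genes, 17.1% passed it. Members were also lower in GC, with a median of 36.5% against 50.8% over all hairpins, and had a median length of 88 bases against 89. The 7 detected members ran from 72.9% to 87.6% alternating steps, so they lay within the range of the families.

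**Figure D1:**
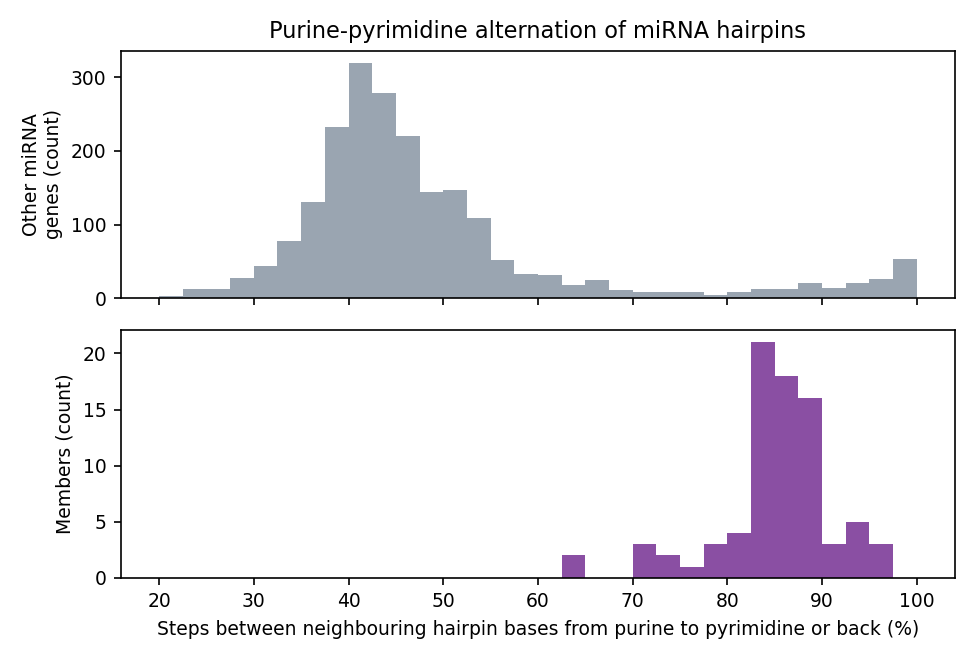
Number of miRNA hairpins (vertical axes) by the share of steps between neighbouring bases that pass from purine to pyrimidine or back (horizontal axis, %), in bins of 2.5 percentage points, for other miRNA genes above and for the 81 members below. Members have a median of 86.2%, and the median of other genes is 44.3%.

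The 71 members within Sfmbt2 lie on its plus strand, between 10466663 and 10518279 of chromosome 2 (mm10), a span of 51.6 kb. The host gene runs from 10370510 to 10595253. The whole cluster sits in a single intron of 62472 bases, which is intron 10 of transcript Sfmbt2-201 and intron 11 of Sfmbt2-205. From Mir467c through Mir467d, 14 Mir467 hairpins follow each other with a median gap of 2.45 kb between starts, and 11 of 13 gaps are from 2.3 to 2.5 kb. In 12 of the units before Mir467d a Mir466 hairpin starts 0.282 to 0.292 kb after the Mir467 hairpin. The gene Mir466 (start 10507918) also follows Mir467d (start 10507630). In 12 units a Mir669 hairpin starts 0.502 to 0.518 kb after the Mir467 hairpin. The middle of the cluster is therefore a row of repeated units of Mir467, Mir466 and Mir669, and the 5 Mir297 hairpins of the locus lie outside that row.

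The libraries themselves differed in ways that touch the comparison further on. The tables held 11704395 reads in replicate 1 and 11288855 in replicate 2, of which 4960537 and 4506482 were assigned to miRNA genes on the annotated strand. Reads that map to several places made up 25.9% and 27.8% of them. Among 6 lists of marker miRNAs, striated muscle miRNAs took 0.125% of assigned reads in replicate 1 and 0.869% in replicate 2, and epithelial miRNAs took 0.471% and 0.116%. Erythroid miRNAs took 0.106% and 0.0287%, endothelial miRNAs 17.1% and 7.51%, and neuroendocrine miRNAs, as the medulla would hold, 4.05% and 4.59%. The fall in the endothelial share was not one of the whole list, since 2 of its 4 miRNAs were higher in each library. Only 3 of the 5 listed neuroendocrine genes are in the tables. The lists were chosen with earlier results of these data known. In tissue of mixed cells, fewer cells of a type and less RNA per cell cannot be told apart.

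The cluster took a low share of uniquely mapped reads in both adrenal libraries, and a few hairpins gave nearly all of the reads counted. Reads that map to several places count for no gene, so any of them from the cluster are not in its share. Members had 6993 reads in replicate 1 and 7730 in replicate 2. The first is 0.141% of assigned miRNA reads (95% Wilson bounds 0.138 and 0.144) and the second 0.172% (bounds 0.168 and 0.175), a mean of 0.156% ± 0.0216 (SD, n = 2). No member had a read on the strand opposite to its hairpin. The minimum for detection was reached by 7 of the 81 members. That is 8.64%, against 17.1% of all 2202 miRNA genes. A further 9 members had reads below the minimum, and 65 had 0 reads in both libraries.

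Mir467d led the families with 3448 reads in replicate 1 and 3029 in replicate 2, or 695 and 672 CPM, which scales reads to a fixed total of assigned miRNA reads, a mean of 684 CPM ± 16.2 (SD, n = 2). It ranked 108 of 2202 genes in replicate 1 and 101 in replicate 2. It lies from 10507630 to 10507714. Mir467e, from 10505721 to 10505807, is its neighbour in the Mir467 family and came next with 1537 and 1953 reads, or 310 and 433 CPM (mean 372 CPM ± 87.3, SD, n = 2). Both libraries thus placed these 2 Mir467 hairpins from the downstream end of the repeated units above every other member.

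Mir669o followed with 720 and 922 reads, or 145 and 205 CPM (mean 175 CPM ± 42.0, SD, n = 2), from a hairpin at 10514300 to 10514395. Mir669c, at 10509296 to 10509404, had 631 and 853 reads, or 127 and 189 CPM (mean 158 CPM ± 43.9, SD, n = 2). Mir669o was above Mir669c in both libraries. Their means differed by less than either SD, but these SDs hold the shift of both genes between the libraries. They do not measure the spread of the difference between the genes. Mir467c had 378 and 413 reads, or 76.2 and 91.6 CPM (mean 83.9 CPM ± 10.9, SD, n = 2), from 10473931 to 10474027 at the upstream end of the repeated units. Mir669l, at 10468971 to 10469068, had 243 and 426 reads, or 49.0 and 94.5 CPM (mean 71.8 CPM ± 32.2, SD, n = 2). The order of these 2 was not stable: Mir467c was above Mir669l in replicate 1 and below it in replicate 2.

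Mir669e was the least abundant detected member, with 24 and 105 reads, or 4.84 and 23.3 CPM (mean 14.1 CPM ± 13.1, SD, n = 2). It lies from 10467495 to 10467613, near the upstream edge of the cluster. These levels are per hairpin, since a small RNA read covers a whole miRNA, and division by hairpin length left the order of the 7 as it was. Of these 7 hairpins, 4 belong to the Mir669 family and 3 to the Mir467 family.

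**Figure D2:**
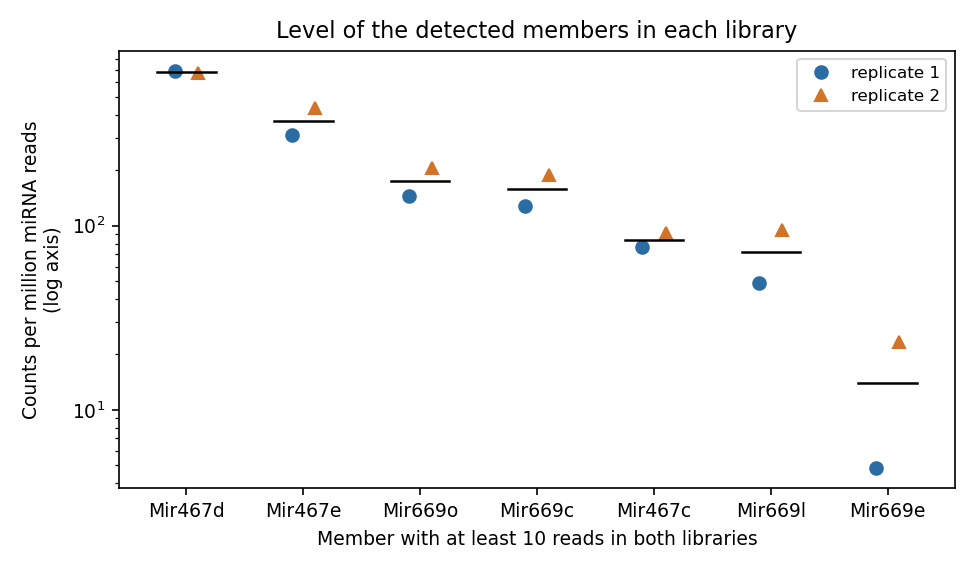
Level of the 7 detected members in CPM (vertical log axis), with circles for replicate 1, triangles for replicate 2 and a bar at their mean. Mir467d is nearly level at 695 and 672 CPM, and the other 6 members lie higher in replicate 2.

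Summed by family, Mir467 held most of the uniquely mapped reads. Its 17 genes had 5363 and 5395 reads, which were 76.7% of the members' reads in replicate 1 and 69.8% in replicate 2. The 30 Mir669 genes had 1620 and 2324 reads, or 23.2% and 30.1%. The 28 Mir466 genes had 9 reads in each library and the 6 Mir297 genes had 1 and 2. Mir466 and Mir297 were thus close to the limit set by counting, although Mir466 has nearly as many genes as Mir669. Reads that map to several places are missing from each of these sums. The median share of 18-base hairpin windows found in other miRNA hairpins was 72.1% for Mir466 and 73.3% for Mir297. It was 100% for Mir467 and 78.3% for Mir669.

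Below the minimum, Mir669h at the downstream edge of the cluster had 2 reads in replicate 1 and 17 in replicate 2, and was the 1 member past 10 reads in a single library. Mir466n, the best covered of its family, had 3 and 4 reads. Mir297a-2, the only Mir297 gene with a read, had 1 and 2. No member below the minimum other than Mir669h had more than 4 reads in a library. These values are too few to place the genes in an order.

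Uniquely mapped reads came from both ends of the cluster and not from its middle. The 13 members from the upstream edge through Mir467c span 7.37 kb, and 6 of them had reads, 647 and 947 in all. The 20 members from Mir467e to the downstream edge span 12.6 kb, and 10 of them had reads, 6346 and 6783 in all. Between Mir467c and Mir467e lie 38 members over 31.7 kb (11 of Mir466, 11 of Mir467 and 16 of Mir669), and each of them had 0 reads in both libraries.

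The same middle stretch held the hairpins that share most sequence with others. For each hairpin, windows of 18 bases were looked up in the other miRNA hairpins, on either strand. Every window was shared in 31 of the 38 members of the middle stretch, in 0 of the 13 upstream of it and in 1 of the 20 downstream. The median share was 100% in the middle, against 62.3% upstream and 62.2% downstream. Identical whole hairpins were common there, as in Mir669a-4 through Mir669a-12, which are 9 copies of 1 sequence. Reads that map to several places stand in a row of their own in the tables and count for no gene.

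Over all 81 members, 40 shared at least 75% of their windows, and these had 0 reads in both libraries. Of the 41 members under 75%, 16 had reads and 7 were detected. This cut lies just above the share of Mir466d, 74.7%, which had 2 and 0 reads. The clean split therefore depends on where the cut is placed. Across the whole tables, 1 of 305 genes with every window shared was detected, and 32 of these 305 are members. With some but not every window shared, 95 of 830 genes were detected (11.4%), and with no window shared 281 of 1067 (26.3%). Whether these classes also differ in the kind of gene they hold was not tested. The value of 0 in the middle of the cluster is one of uniquely mapped reads, and no upper limit is given for those hairpins.

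Members that share little sequence did not all have high counts. The 4 members with at most 10% of windows shared (chosen after their values were seen) were Mir466g, Mir669n, Mir466h and Mir669e. Mir466g shared 0 windows and had 1 and 0 reads. Mir466h shared 9.38% and had 2 and 4 reads, Mir669n shared 2.70% and had 0 reads, and of the 4 only Mir669e, at 7.84%, was detected. Mir467d, the most abundant member, shared 66.2% of its windows, with a longest shared run of 60 of its 85 bases. The shares were 45.7% for Mir467e, 46.2% for Mir467c, 26.1% for Mir669c, 58.2% for Mir669o and 53.1% for Mir669l. Counts of these members hold the reads that could be placed, so their levels, and the order among them, are those of uniquely mapped reads. Reads were placed on mm10 and hairpins were those annotated on it. Whether CAST/EiJ copies differ from mm10 in this cluster, and so move reads between hairpins or out of the counts, was not tested.

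**Figure D3:**
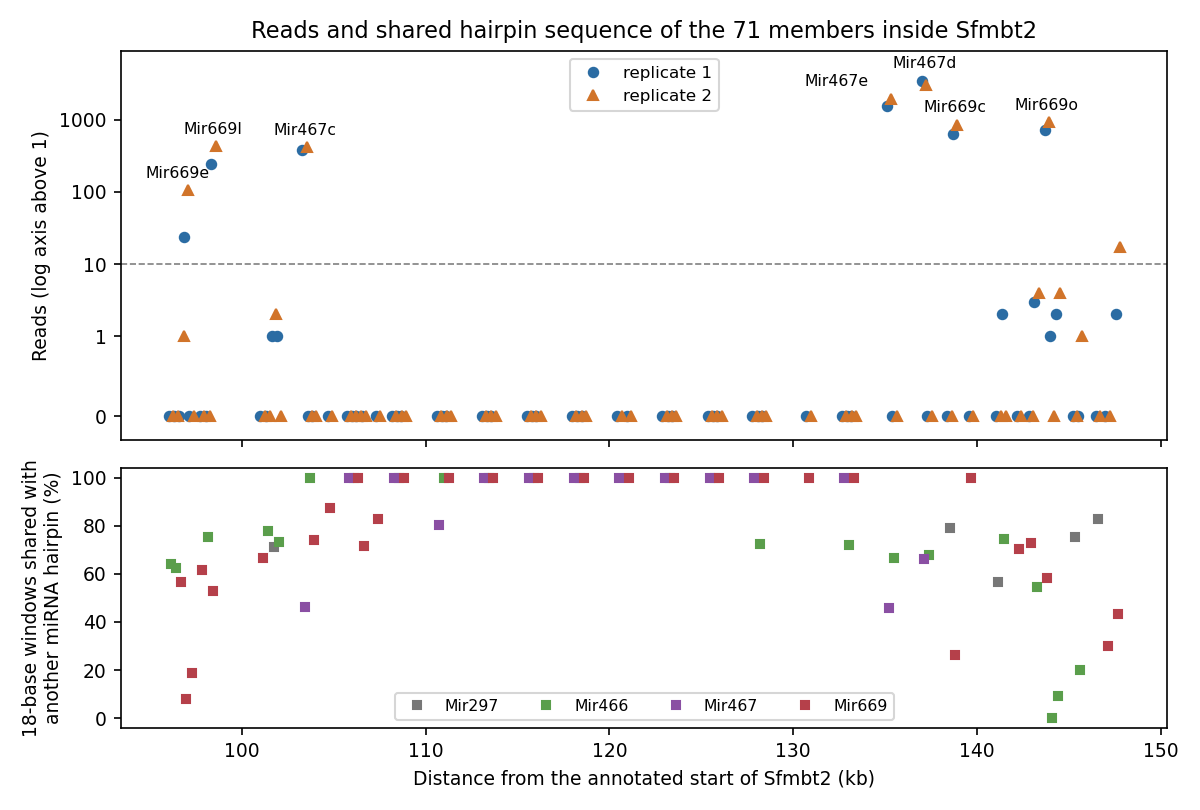
Reads per library (upper axis, logarithmic above 1, circles for replicate 1 and triangles for replicate 2, drawn side by side) and the share of 18-base hairpin windows found in another miRNA hairpin (lower axis, %, coloured by family) for the 71 members, by distance from the start of Sfmbt2 in kb. The dashed line is the minimum of 10 reads; the 38 members between Mir467c and Mir467e lie at 0 reads, and 31 of them share every window.

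The 10 members outside Sfmbt2 had 0 reads in both libraries. They lie on 7 chromosomes, 5 of them in an intron of a gene on the opposite strand, 4 in no annotated gene and 1, Mir466q, in an intron of Tnik on the same strand. A count of 0 allows a share of up to 6.05e-05% of assigned reads in replicate 1 and 6.66e-05% in replicate 2 for uniquely mapped reads, by counting error alone. Their hairpins shared a median of 35.0% of windows, less than the 80.4% of the members within Sfmbt2. Against the 0 of 10 detected outside, 7 of 71 were detected within, 9.86%, and 17.1% of all 2202 miRNA genes. With so few genes outside, these counts of detected genes cannot set the groups apart. No fold between the groups can be given against a sum of 0, and members of 1 cluster are not independent of each other. Both groups alternate purines and pyrimidines, with medians of 88.8% outside and 86.2% within.

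Other hairpins annotated within Sfmbt2 had few reads. The 48 miRNA genes there that carry other names had 1 read in replicate 1 and 10 in replicate 2, and 0 of them reached 10 reads in either library. They shared a median of 90.9% of their windows. The detected part of the locus was thus made up of the 7 named members.

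For scale, the Dlk1-Dio3 locus on chromosome 12, an imprinted miRNA cluster expressed from the maternal copy, was much more abundant. Its 64 genes from Mir770 through Mir410 took 10.6% and 14.3% of assigned reads, and 50 of them were detected. Their hairpins shared a median of 0% of windows and had a median of 46.5% alternating steps, close to that of other miRNA genes. The shares of the 2 loci can be set side by side only as shares of uniquely mapped reads.

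The members with enough reads to compare lay higher in replicate 2, by 0.08 to 2.40 on the log2 scale with TMM scaling (Mir467d lay lower with total reads). Of the 377 genes with at least 10 reads in both libraries, 7 were members, and each of these was called higher in replicate 2 by an exact two-sided binomial test of scaled reads (Benjamini-Hochberg adjusted p under 0.05). By the same rule 35.5% of the 377 genes were called higher in replicate 2 and 68.2% were called in either direction. The members' median log2 ratio of replicate 2 over replicate 1 was 0.63, against 0.04 over the 377 genes, whose ratios had an SD of 0.97. This test compares 2 libraries and not conditions, and with 1 library per sample it takes counting as the only error. Scaling was by TMM, which sets library sizes from the bulk of genes.

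Mir669e stood highest, with its 24 and 105 reads giving a log2 ratio of 2.40 (95% exact interval 1.75 to 3.10, adjusted p = 1.67e-16, exact binomial test). Only 3 of the 377 genes had a higher ratio. Mir669l followed at 1.08 (0.85 to 1.31, adjusted p = 5.61e-21, exact binomial test). The interval of Mir669e overlapped with no other member's, and that of Mir669l overlapped narrowly with that of Mir669c. Mir669c was at 0.70 (0.55 to 0.86), Mir669o at 0.63 (0.48 to 0.77), Mir467e at 0.62 (0.52 to 0.71) and Mir467c at 0.40 (0.19 to 0.60). Mir467d, the most abundant member, had a log2 ratio of 0.08 (0.01 to 0.15, adjusted p = 0.033, exact binomial test).

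The call of Mir467d rested on the scaling. Total assigned reads in place of TMM moved every log2 ratio by -0.13 and the median of the 377 genes to -0.09. Mir467d then stood at -0.05 with an adjusted p of 0.23 in the exact binomial test, and 6 members were called higher in replicate 2, against 29.7% of the 377 genes. Relative to the median gene, Mir467d was nearly level in either scaling, and the other 6 members were above it.

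A second test took a wider error. In edgeR's exact test the common dispersion was estimated from both libraries taken as 1 group, a biological coefficient of variation of 0.433. The differences under test thus count as error, so this test can call few genes and its low counts say little. At an adjusted p under 0.05 passed 0 of the 7 members and 1.86% of the 377 genes. At an unadjusted p under 0.05 were 1 member, Mir669e (adjusted p = 0.39, edgeR exact test), and 24 of the 377 genes.

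The make-up of the cluster's reads shifted with these ratios. Mir467d held 49.3% of the members' reads in replicate 1 (95% Wilson bounds 48.1 and 50.5) and 39.2% in replicate 2 (bounds 38.1 and 40.3). These ranges do not overlap, but they cover counting error within a library only and not the spread between samples. The share of Mir467e was 22% and 25.3%. That of Mir669e was 0.343% and 1.36%. Summed over the members, reads had a log2 ratio of 0.41 (95% exact interval 0.37 to 0.46), and without Mir467d 0.68 (0.61 to 0.74). The sum was 0.28 for the Mir467 family and 0.79 for the Mir669 family. As a fold of replicate 2 over replicate 1, the sum over the members was 1.33 with Mir467d and 1.60 without it.

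**Figure D4:**
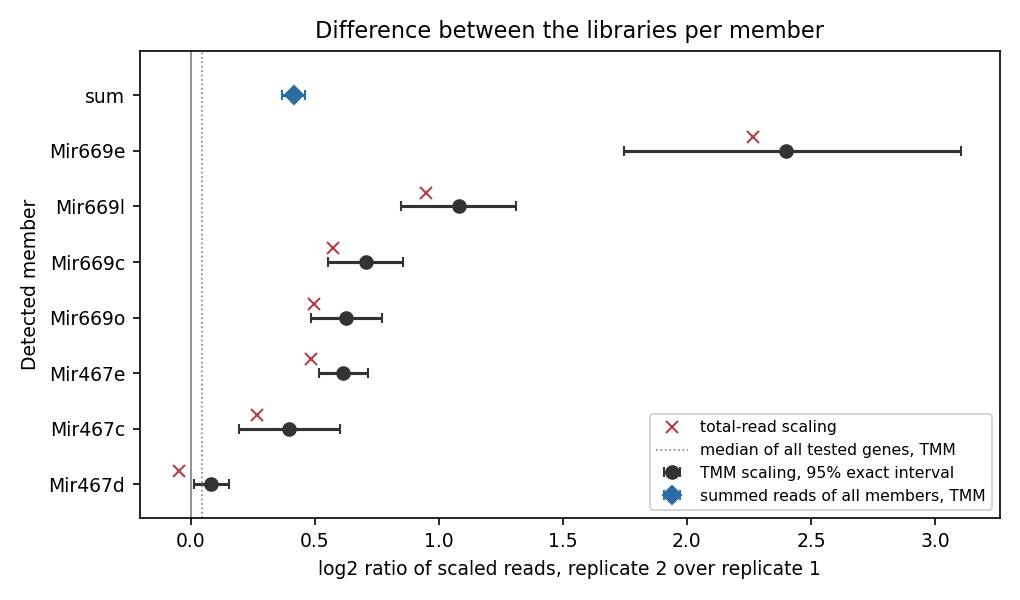
Log2 ratio of scaled reads, replicate 2 over replicate 1 (horizontal axis), for the 7 detected members and their sum (vertical axis), with 95% exact intervals for TMM scaling and crosses for scaling by total reads. Mir669e (2.40) and Mir669l (1.08) lie above the other members, and Mir467d changes sign between the scalings (0.08 and -0.05).

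Marker lists differed between the libraries in both directions, beside a background of 35.5% of the 377 genes called higher in replicate 2 and 32.6% called higher in replicate 1. The 3 detected striated muscle miRNAs were all called higher in replicate 2 (median log2 ratio 2.93). Of the 3 detected neuroendocrine miRNAs, 2 were called higher in replicate 2 and 0 in replicate 1 (median 0.30). Of the 4 endothelial miRNAs, 2 were called each way (median 0.09). Epithelial miRNAs were called higher in replicate 1 in 6 of 7 cases and in replicate 2 in 1 (median -3.85), and erythroid miRNAs in 2 of 3 and in 1 (median -1.87). In the pluripotent and trophoblast stem cell clusters, 5 of 11 detected miRNAs were called higher in replicate 2 and 0 in replicate 1 (median 0.53), a share not far above the background. That list took 0.0408% and 0.0469% of assigned reads, with Mir290b, Mir292b and Mir367 of its 14 genes at 0 in both libraries. The part of tissue make-up in the members' ratios was not tested.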

How the data were processed

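The authors deposited 1 table of raw counts for each library, with a row for each miRNA gene. Per the file headers (the text files deposited beside the tables), the assembly was mm10 and the annotation GENCODE M21. Neither aligner nor counter is given in the sources used here. The column taken as that of the annotated strand was set by its place in the tables and used for each main result. Rows naming no gene (unmapped, 25.8% and 26.1% of reads in replicates 1 and 2; multimapping, 25.9% and 27.8%; outside genes, 5.96% and 6.24%) were left out of library sizes and tests.

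Symbols, positions and hairpins came from GENCODE M21 and mature sequences from RefSeq. CPM was computed over assigned reads. Log2 ratios and exact binomial tests used TMM factors of edgeR 4.0.16 (1.05 and 0.956) from all genes with a read, and p-values were adjusted over all 377 genes with at least 10 reads in both libraries. The binomial test was tried on simulated counts that held counting error only, scaled by total reads. That check does not cover further spread between libraries or TMM scaling. Alternatives were total reads, size factors of DESeq2 1.42.0, other read minimums, either-strand counts and edgeR's exact test. No molecular identifiers are stated, and reads may be PCR copies, so intervals and floors cover counting error only. Shared hairpin windows were sought among annotated miRNA hairpins and not in the genome.

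Members with at least 10 reads in both libraries were named with full values. Those past 10 reads in 1 library, and the member with most reads of each family, were named with their reads. Members and lists were chosen with earlier results of these data known.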

Additional observations from a re-analysis of the deposited data

How the results depend on the processing

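The share of reads in the families was a mean of 0.156%, ran from 0.141% to 0.172% with either library left out, and was 0.185% with reads on either strand, where 1018277 and 497237 reads count as ambiguous, and 0.0641% of all reads in the tables. The number of detected members was 7, or 11 with at least 1 read in both libraries, and stayed from 7 to 8 under the other alternatives. The number called higher in replicate 2 was 7, 6 under total reads, DESeq2 size factors or TMM from detected genes (the last added after seeing the data), and 0 with edgeR's exact test. Mir467d reversed to a log2 ratio of -0.048 under total reads. The other 6 detected members stayed called higher under every other scaling and strand setting tried. The summed log2 ratio of 0.41 ran from 0.28 to 0.41 over these settings and was 0.68 without Mir467d, also added after seeing the data. Members outside Sfmbt2 had 0 reads, so the planned ratio of their sum has no value. No paired analysis was possible because the series has 1 group.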
